A study of Mus musculus with 48 samples.

Results

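The genes described here act in apoptosis and in cell competition, and they were taken as a list of 9 symbols: Trp53, Myc, Bax, Bak1, Bcl2l1, Bcl2l11, Bcl2l14, Bbc3 and Mcl1. Each symbol matched a single Ensembl gene of the GRCm38 annotation, so the list makes up 9 of the 49671 genes in the count table. The study sequenced single cells from inner cell masses (ICMs) of mouse blastocysts at E3.75, when precursors of the epiblast (pEPI) and of the primitive endoderm (pPrE) are still mixed. The embryos came from natural matings of Pdgfra H2B-GFP/+ mice with F1 hybrids of C57BL/6J and CBA/J. The Pdgfra H2B-GFP/+ mice carry a nuclear green fluorescent protein at the Pdgfra locus. The embryos used were positive for Pdgfra H2B-GFP and were chosen by their GFP pattern. The trophectoderm was removed by immunosurgery and the ICMs were dissociated with Accutase and trypsin. Libraries of 48 cells were made with Smart-seq2, which copies whole transcripts and tags no single molecule. All 48 cells are untreated and carry the label WT (wild type) in their titles, and no label gives the embryo or the lineage of a cell.

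In mitochondrial apoptosis, BH3-only proteins such as BIM (Bcl2l11), PUMA (Bbc3) and NOXA (Pmaip1) bind the anti-apoptotic BCL-2 proteins, among them BCL-XL (Bcl2l1) and MCL1. When these guardians are occupied, the effectors BAX and BAK permeabilise the outer mitochondrial membrane, cytochrome c leaves the mitochondria and caspases are activated. The tumour suppressor p53 (Trp53) is a transcription factor that activates Bax, Bbc3 and Pmaip1 in other settings. In cell competition, cells with less MYC or with more p53 activity than their neighbours are eliminated, a process known from flies and from the early mouse epiblast. Apoptosis is also known to remove some ICM cells before implantation.

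The study's dendrogram has a pEPI branch of 25 cells and a pPrE branch of 23 cells, and these branches are compared below. Expression in the very same cells built the dendrogram, so a difference between its branches describes the grouping and is not independent of it. No label ties a cell to an embryo, and the 48 cells are treated as 1 sample without replicates, so no test took cells as replicates and each SD below is a spread between cells. Total counts ranged from 2052874 to 5470475 in pEPI cells (median 3751329) and from 1718970 to 7342785 in pPrE cells (median 4251373). Levels are given in FPKM, which divides counts by the length of a gene's exons and by library size, so that levels can be compared between genes. The log2 ratio divides the pPrE mean by the pEPI mean, so a negative value is higher in pEPI. Its 95% counting interval covers the counting error of reads only. A gene was called when this ratio was at least 1 in size, a 2-fold difference, among the 10880 genes with a mean of at least 1 FPKM.

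The branches carried the markers of their names, but expression in these same cells built the dendrogram. The marker calls therefore describe the branches and are no independent support for their names. Of 8 pEPI markers, 5 were called higher in pEPI, among them Nanog, whose mean was 315 ± 221 FPKM over the pEPI and 43.7 ± 73 FPKM over the pPrE cells. Of 10 pPrE markers, 9 were called higher in pPrE, and Dab2, counted in 11 cells, fell under the minimum level. In 9 cells of the pPrE branch Nanog was above Gata6 in FPKM, among them well A1 with 308 against 2.8 FPKM. The trophectoderm markers Cdx2, Krt7 and Elf5 were counted in 3, 1 and 5 cells. The other trophectoderm markers were less rare, and Krt8, the most abundant of the 8, was counted in 46 cells. Their summed level was 71.6 ± 47.6 FPKM in pEPI and 35.9 ± 24 in pPrE, and Tfap2c contributed most to this difference, with 24.5 against 1.7 FPKM. Eomes, Gata3 and Elf5 of this list were higher in pPrE instead, with log2 ratios of 0.31, 2.62 and 3.82 and counts in 22, 9 and 5 cells. The cell in well B8 held 94.3% of the pPrE counts of Elf5, whose log2 ratio fell to 0.22 with that cell left out. For Gata3, well E7 held 68.2% of the pEPI counts and well A1 held 39% of the pPrE counts. Its ratio without these cells was not computed. The summed level was higher in pEPI, as were Trp53, Myc and Bcl2l14, and its part in their differences was not tested.

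Among the 9 genes, 3 were called between the branches, and all of these, Trp53, Myc and Bcl2l14, were higher in pEPI. Across all genes tested, 15.2% were called in either direction and 9.03% were called higher in pEPI. Another 4 genes, Bax, Mcl1, Bcl2l1 and Bcl2l11, differed by less than 2-fold, and Bak1 and Bbc3 had means under 1 FPKM. Over the 7 genes above this minimum, the median log2 ratio was -0.56, beside 0.00 over all 10880 genes. The 9 genes and the lists below were chosen with earlier results of these data known. Their shares and medians are thus no test of a set against all genes. Bax, Mcl1 and Trp53 were counted in every cell, which makes 3 of 9 genes.

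**Figure D1:**
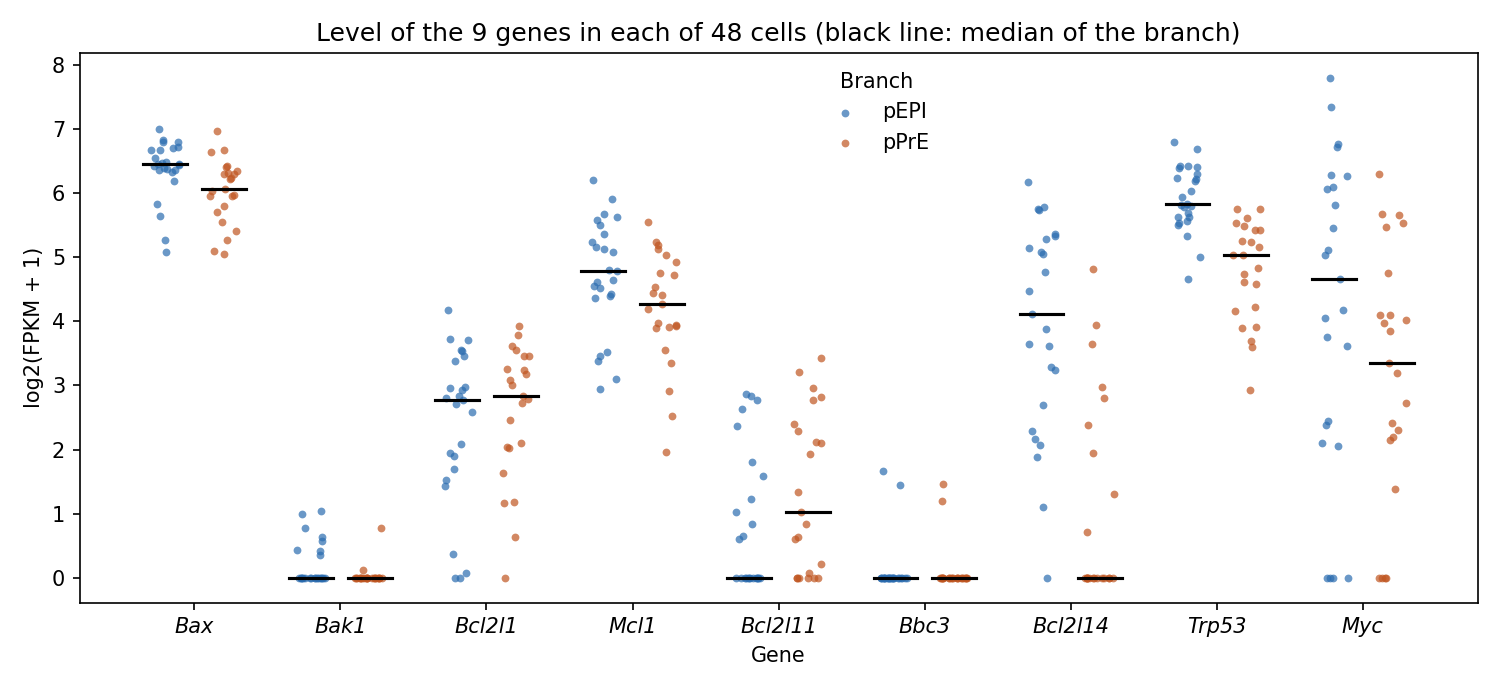
Level of the 9 genes in each cell as log2(FPKM + 1), with pEPI cells in blue (25), pPrE cells in orange (23) and a black line at the median of the branch. Bax, Mcl1 and Trp53 were counted in all 48 cells, Bcl2l14 was counted in 24 pEPI and 9 pPrE cells, and Bak1 and Bbc3 were counted in 10 and 4 cells.

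Trp53 (ENSMUSG00000059552, chromosome 11 of GRCm38, 69580359 to 69591873, plus strand) was among the more abundant transcripts, and 88.3% of the genes tested had a lower mean. Its level ran from 24.2 FPKM in well C2 to 111 in well F4 among pEPI cells, with a median of 56.1. Among pPrE cells it ran from 6.6 FPKM in well C5 to 53.3 in well E1, with a median of 31.7. The branches overlapped between 24.2 and 53.3 FPKM, but every pPrE cell lay below the pEPI median, 9 of 23 lay below the lowest pEPI cell, and 16 of 25 pEPI cells lay above the highest pPrE cell. The means were 62.9 ± 21.5 FPKM (SD, n = 25 cells) and 30.1 ± 14.2 (SD, n = 23 cells), a log2 ratio of -1.06 (-1.10 to -1.03) that lies close to the 2-fold threshold. This difference exceeded the SD of both branches, and when each pPrE cell was paired with each pEPI cell, the pPrE cell was higher in 8.7% of pairs. The processed pseudogene Trp53-ps drew 11 counts, against 37738 on Trp53.

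In the list of the p53 family and its regulators, Trp53 was the 1 gene called of 5 tested, and the median log2 ratio was 0.16. Usp7, the deubiquitinase that stabilises MDM2 and p53, had means of 23.2 ± 10.1 FPKM in pEPI and 17.3 ± 6.16 in pPrE. Mdm2, the ubiquitin ligase that degrades p53 and is itself a p53 target, was named after its values had been seen. It had 9.34 ± 6.07 FPKM in pEPI and 14.7 ± 8.9 in pPrE, a log2 ratio of 0.66 against the direction of Trp53, with a difference smaller than the SD of the pPrE cells. Trp53 exceeded Mdm2 in 25 of 25 pEPI and 18 of 23 pPrE cells.

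The p53 targets went in both directions, with log2 ratios from -1.52 (Trp53inp1) to 0.66 (Mdm2) among those tested. Of their 18 genes, 12 had a mean of at least 1 FPKM, 1 was called higher in pEPI, none was called higher in pPrE, and the median log2 ratio was -0.00. The called gene was Trp53inp1, a stress-induced gene of autophagy and cell death, with 2.58 ± 3.55 FPKM in pEPI and 0.897 ± 1.85 in pPrE, counted in 15 and 8 cells. The spread between pEPI cells was larger than this difference, and with a pPrE mean under 1 FPKM the gene reached the minimum level through pEPI, where it was higher. Summed over the list, the level was 218 ± 92.8 FPKM in pEPI and 200 ± 85.2 in pPrE, most of it from Bax and Pmaip1.

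Myc (ENSMUSG00000022346, chromosome 15, 61985391 to 61990374, plus strand) differed from Trp53 in how unevenly it was spread. It ran from 0 to 222 FPKM among pEPI cells, with a median of 24.4, and from 0 to 78.3 among pPrE cells, with a median of 9.24. Cells at 0 were found in both branches, 4 in each, and 4 pEPI cells lay above the highest pPrE cell. The ranges overlapped from 0 to 78.3 FPKM. The means were 45.7 ± 55.9 FPKM (SD, n = 25 cells) and 17.8 ± 21.2 (SD, n = 23 cells), a log2 ratio of -1.36 (-1.41 to -1.32). The SD of the pEPI cells was larger than this difference. The cell in well A4 held 16.4% of all Myc counts, and without it the log2 ratio was -1.11. As a difference of mean log2(FPKM + 1) it was -0.98, which ends the call.

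The paralogues of Myc went in both directions. Mycl had 4.27 ± 5.61 FPKM in pEPI and 1.35 ± 2.66 in pPrE, a log2 ratio of -1.66. Mycn was called in the opposite direction, with 11.7 ± 18.3 FPKM in pEPI and 24.6 ± 34.2 in pPrE and a log2 ratio of 1.07. This call is lost among cells with and among cells without counts on Y-linked genes, where the log2 ratios were 0.94 and 0.64. Both differences were smaller than the largest SD between cells. Myc exceeded Mycn in 16 of 25 pEPI and 9 of 23 pPrE cells, and 3 cells of the 48 had no count of either gene. The sum of Myc, Mycn and Mycl ran from 0.392 to 236 FPKM in pEPI, with a median of 36.3, and from 0 to 200 in pPrE, with a median of 19.9. Mxd3, a MAX partner that opposes MYC, had 3.84 ± 4.89 FPKM in pEPI and 8.72 ± 10.6 in pPrE, a log2 ratio of 1.18. Without the highest pPrE cell the log2 ratio was 0.88 for Mxd3 (well D7) and 0.70 for Mycn (well F6), and neither is then called. Mlx, a MAX-like protein and the second most abundant gene of the network, had 18.3 ± 17.5 and 21.7 ± 14.5 FPKM. Of 7 network genes tested, 2 were called in each direction over all 48 cells.

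None of 12 MYC targets was called. Their median log2 ratio was 0.07, and the list summed to 1796 ± 229 FPKM in pEPI and 1935 ± 285 in pPrE. Npm1, a nucleolar chaperone of ribosome assembly, had 1123 ± 149 FPKM in pEPI and 1153 ± 140 in pPrE. Srm, which encodes spermidine synthase, had 158 ± 52.2 and 199 ± 61.1 FPKM.

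Bax (ENSMUSG00000003873, chromosome 7, 45461697 to 45466898, minus strand) was the most abundant and the most even of the 9 genes. It ran from 32.8 FPKM in well C4 to 127 in well F1 among pEPI cells, with a median of 86.5. Among pPrE cells it ran from 32.1 to 124 FPKM, with a median of 66. These ranges were almost the same, although 20 of 23 pPrE cells lay below the pEPI median. The means were 85.7 ± 22.8 FPKM (SD, n = 25 cells) and 68.2 ± 22.9 (SD, n = 23 cells), a log2 ratio of -0.33 (-0.37 to -0.29). The SD of each branch was larger than this difference. The coefficient of variation was 0.266 in pEPI and 0.336 in pPrE, beside 1.22 and 1.19 for Myc.

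Bak1 (ENSMUSG00000057789, chromosome 17, 27019810 to 27029009, minus strand), which encodes the second effector, was close to undetected. It had 56 counts over all 48 cells, with 47 (exact Poisson interval 34.5 to 62.5) in pEPI and 9 (4.12 to 17.1) in pPrE. Counts were found in 8 of 25 pEPI cells (32%, exact Clopper-Pearson interval 14.9% to 53.5%) and in 2 of 23 pPrE cells (8.7%, 1.07% to 28%), with 11 counts in the highest cell. The means of 0.19 and 0.035 FPKM gave a log2 ratio of -2.45 (-3.66 to -1.40), on a gene below the minimum level. The pPrE cell in well B7 held 8 of the 9 pPrE counts. Without the cells of well letter B the log2 ratio was -5.13, and as a difference of mean log2(FPKM + 1) it was -0.17. An opposite-strand gene, Ggnbp1, overlaps 18.2% of the Bak1 exons, and Smart-seq2 reads carry no strand, so reads in the overlap cannot be assigned. Bax exceeded Bak1 in all 48 cells. A further effector, Bok, which permeabilises membranes without BAX and BAK, had 12.7 ± 13.4 FPKM in pEPI and 3.13 ± 6.59 in pPrE and was counted in 20 and 11 cells. Its log2 ratio of -2.02 (-2.16 to -1.89) made it the 1 effector called, with a difference smaller than the SD of the pEPI cells. The cell in well D2 held 38.6% of the pPrE counts of Bok, and the ratio without that cell was not computed.

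Of the guardians, Mcl1 (ENSMUSG00000038612, chromosome 3, 95658788 to 95663176, plus strand), a protein of short half-life, was the more abundant. It ran from 6.71 to 72.9 FPKM in pEPI cells (median 26.5) and from 2.9 to 45.7 in pPrE cells (median 18.3). The highest 5 pEPI cells lay above all pPrE cells, and the lowest 3 pPrE cells lay below all pEPI cells. Its means of 30.1 ± 17 and 20.4 ± 11.2 FPKM gave a log2 ratio of -0.56 (-0.61 to -0.52), with a difference smaller than the SD of either branch. Bcl2l1 (ENSMUSG00000007659, chromosome 2, 152780668 to 152831728, minus strand) was missed in 2 pEPI cells and 1 pPrE cell. It had means of 5.83 ± 4.52 and 6.33 ± 4.09 FPKM, and its log2 ratio of 0.12 (0.04 to 0.20) turned to -0.05 as a ratio of summed CPM (counts scaled to the library total), so it has no firm direction. Mcl1 exceeded Bcl2l1 in 45 of 48 cells, and Bax exceeded Mcl1 in all 48. Of the 8 anti-apoptotic genes looked up, Mcl1 and Bcl2l1 alone reached a mean of 1 FPKM, and 4 had no count in any cell.

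The BH3-only genes differed among themselves far more than between branches. Bcl2l11 (ENSMUSG00000027381, chromosome 2, 128126038 to 128162547, plus strand) was counted in 12 of 25 pEPI cells (48%, 27.8% to 68.7%) and in 17 of 23 pPrE cells (73.9%, 51.6% to 89.8%). It ran from 0 to 6.26 FPKM in pEPI, with a median of 0, and from 0 to 9.78 in pPrE, with a median of 1.04. The pPrE cells in wells A5, D5 and E1 lay above every pEPI cell, at 6.8, 8.25 and 9.78 FPKM, and the ranges overlapped below them. The means of 1.45 ± 2.2 and 2.57 ± 3 FPKM differed by less than the SD of either branch. Its log2 ratio of 0.82 (0.72 to 0.93) stayed above 0 in 17 of 17 alternatives, from 0.49 to 1.73. Without the cells of well letter E it was 1.08, past the threshold, and without those of well letter F it was 0.51. Without its highest cell, in well E1, it was 0.62. Bbc3 (ENSMUSG00000002083, chromosome 7, 16308393 to 16318205, plus strand) had 65 counts, in the pEPI wells C2 and E3 and the pPrE wells B6 and E1, with 11 to 19 counts in each. The other 44 cells had none, and the log2 ratio of -0.23 (-0.99 to 0.51) has an interval on both sides of 0.

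Pmaip1 was the most abundant BH3-only gene, although it is not among the 9. Its means of 62.2 ± 80.9 FPKM in pEPI and 62.7 ± 77 in pPrE gave a log2 ratio of 0.01, with an SD between cells above the mean in both branches. It exceeded Bbc3 in 41 of 48 cells and Mcl1, which NOXA binds, in 25. Bad, whose product binds BCL-XL, was counted in 47 cells, with 19.2 ± 12.4 FPKM in pEPI and 12 ± 7.01 in pPrE.

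Bcl2l14 (ENSMUSG00000030200, chromosome 6, 134396318 to 134438736, plus strand), which encodes the BCL-2-like protein BCL-G, had the largest log2 ratio in size among the 7 genes above the minimum level. It ran from 0 FPKM in well A3 to 71 in well A6 among pEPI cells, with a median of 16.4, and from 0 to 27.2 in well A1 among pPrE cells, with a median of 0. It was counted in 24 of 25 pEPI cells (96%, 79.6% to 99.9%) and in 9 of 23 pPrE cells (39.1%, 19.7% to 61.5%). The branches overlapped from 0 to 27.2 FPKM, and 10 pEPI cells lay above the highest pPrE cell. That cell, in well A1, had 308 FPKM of Nanog and 2.8 of Gata6 and held 33.2% of the Bcl2l14 counts in pPrE. The means were 23.4 ± 20.3 FPKM (SD, n = 25 cells) and 3.26 ± 6.55 (SD, n = 23 cells), a 7.18-fold difference and a log2 ratio of -2.84 (-2.93 to -2.76), beside -2.85 for Nanog. Its size depended on the grouping and the summary: it was -3.89 between Ward clusters, -4.70 between cells above and below a Nanog to Gata6 ratio of 1, and -4.74 as a difference of mean log2(FPKM + 0.1). Without the cell in well A1, an alternative chosen after seeing the data, it was -3.43. The difference between the means was only slightly smaller than the SD of the pEPI cells. The antisense gene 4933406J09Rik overlaps 14.1% of its exons and had 3 counts in all. The related gene Bcl2l13 had 3.39 ± 3.31 FPKM in pEPI and 4.25 ± 3.59 in pPrE.

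Downstream of the mitochondria the branches were close to each other. None of 7 genes tested for the apoptosome and caspases was called, with a median log2 ratio of 0.06. Cycs, which encodes cytochrome c, had 30.2 ± 9.77 FPKM in pEPI and 39.7 ± 14.9 in pPrE, and Casp6, which encodes an executioner caspase, had 15.5 ± 9.33 and 16.2 ± 11.1. None of 7 inhibitors of apoptosis (IAPs) and their antagonists was called either, with a median of 0.03. Birc5, the gene for survivin, which also acts in mitosis, had 97 ± 27.2 and 102 ± 20.9 FPKM, and Xiap, which inhibits caspases, had 27.1 ± 16.6 and 41.4 ± 26.1.

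Of 4 death receptor genes tested, 1 was called, the receptor gene Tnfrsf1a, with 3.66 ± 5.29 FPKM in pEPI and 0.846 ± 2.69 in pPrE and counts in 10 and 4 cells. This gene too reached the minimum level through pEPI, the SD of the pEPI cells was larger than the difference, and well D8 held 65.7% of the pPrE counts. The adaptor genes Tradd and Fadd had means of 9.44 ± 6.81 and 3.48 ± 2.95 FPKM in pEPI, and 9.35 ± 6.81 and 2.4 ± 2.24 in pPrE. Of 6 integrated stress response genes tested, 1 was called, Asns, which encodes asparagine synthetase, with 95.5 ± 80.4 FPKM in pEPI and 195 ± 113 in pPrE and a log2 ratio of 1.03. The SD of the pPrE cells was larger than this difference, and without the cell in well F5 the log2 ratio was 0.93, which ends the call. Atf4, the transcription factor of this response, had 87.5 ± 29.4 and 98.4 ± 32.3 FPKM.

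Of 6 other genes linked to cell competition, 1 was called. Sparc, a matricellular protein gene reported in flies to protect cells that are being outcompeted, had 78.2 ± 32.3 FPKM in pEPI and 248 ± 121 in pPrE, a log2 ratio of 1.67, and the difference exceeded the SD of either branch. Sparc is also a known basement membrane gene of the endoderm. Llgl1, a polarity gene, had 7.82 ± 6.05 and 7.26 ± 4.22 FPKM. Over all 102 genes of these lists, 73 were tested, 4 were called higher in pPrE and 7 higher in pEPI, and the median log2 ratio was 0.06, beside 0.00 over all genes tested. The share called was 15.1%, near the 15.2% of all genes tested. Among those called higher in pEPI, Trp53inp1 and Tnfrsf1a reached the minimum level only through pEPI. For the 8 called genes outside the 9, the highest cell of the higher branch was left out after the data had been seen, and Asns, Mxd3 and Mycn lost the call while 5 kept it.

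**Figure D2:**
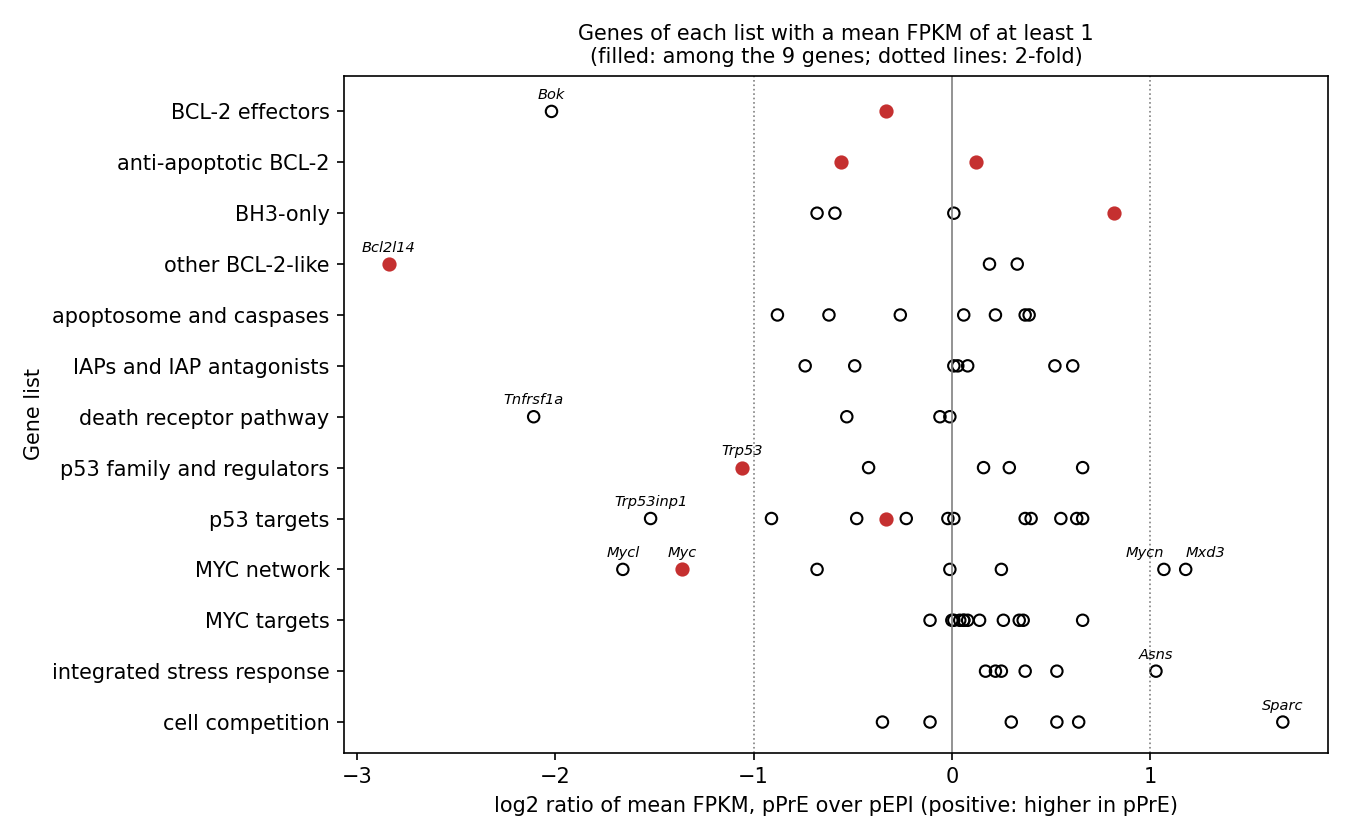
Log2 ratio of mean FPKM in pPrE over pEPI for every gene of each list with a mean of at least 1 FPKM, with members of the 9 genes filled and dotted lines at a 2-fold difference. Bcl2l14 lies at -2.84 and Sparc at 1.67, while the 12 MYC targets lie between -0.11 and 0.66.

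Cell by cell, the members did not form a common pattern. Among the 7 members counted in at least 24 cells, the 21 pairwise Spearman correlations over 48 cells ran from -0.46 to 0.58 with a median of 0.03, and 1 pair reached 0.5. These correlations are descriptions, and their points share cells, embryos and libraries. The highest pair was Trp53 and Bcl2l14, at 0.58, which fell to 0.20 within pEPI cells and 0.17 within pPrE cells. The lowest pair was Myc and Bcl2l11, at -0.46, with -0.46 within pEPI and -0.36 within pPrE cells. Trp53 and Myc stood at 0.38 over all cells, at 0.66 within the 25 pEPI cells and at -0.22 within the 23 pPrE cells. The 4 pEPI cells with no count of Myc had a median Trp53 of 42.9 FPKM, against 60.6 in the other 21. Within pEPI cells Trp53 also stood at -0.71 with the number of genes detected and at -0.43 with the mitochondrial share of counts, and the part of these measures was not tested.

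The called genes correlated with Nanog more over all cells than within pPrE cells. The correlation with Nanog over 48 cells was 0.73 for Bcl2l14, 0.68 for Trp53 and 0.47 for Myc, within pEPI cells it was 0.32, 0.44 and 0.65, and within pPrE cells 0.42, 0.10 and 0.32. Bcl2l11 went the other way, at -0.55 over all cells, -0.61 within pEPI and -0.50 within pPrE cells. Bax and Mcl1 stood at 0.30 and 0.21 over all cells and at -0.12 and -0.18 within pEPI cells.

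**Figure D3:**
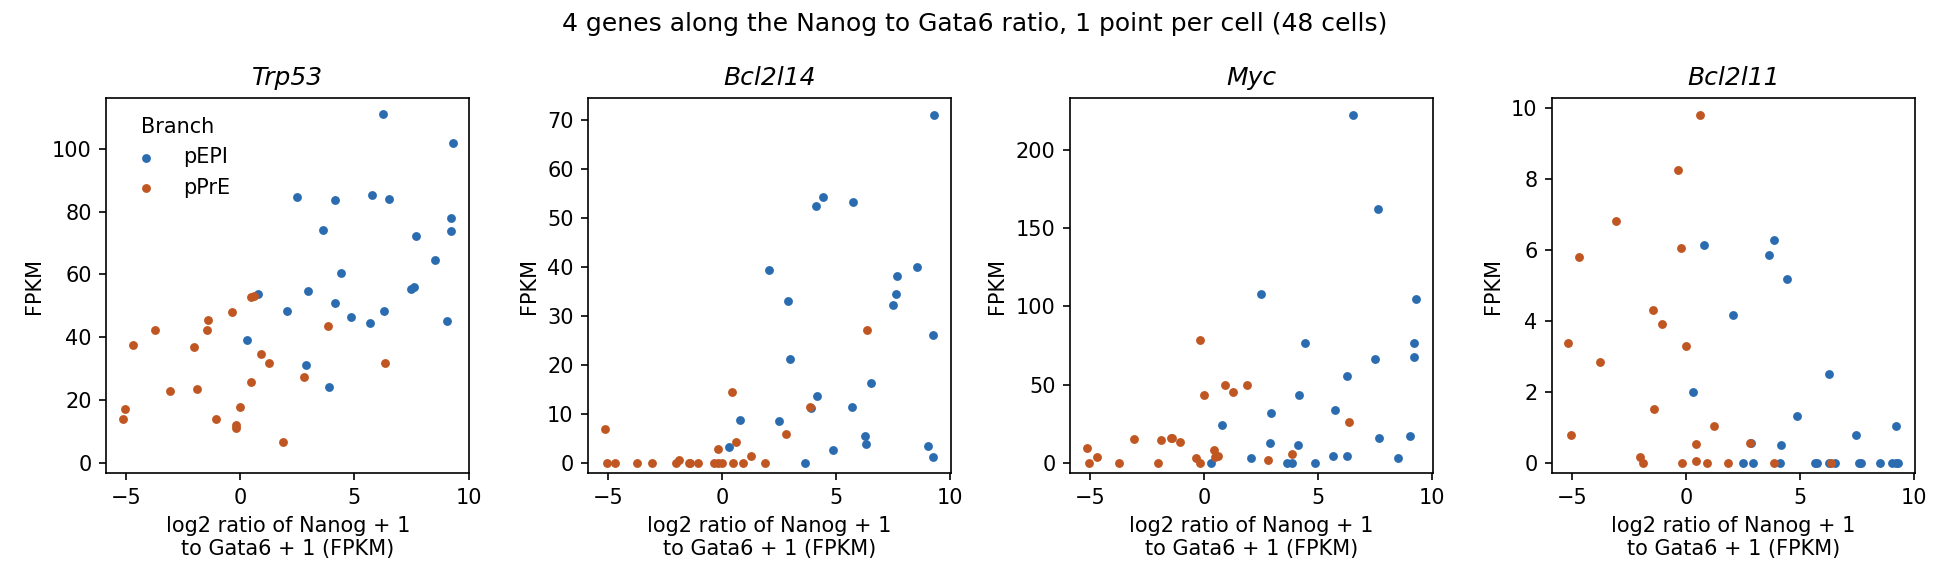
FPKM of Trp53, Bcl2l14, Myc and Bcl2l11 in each of 48 cells against the log2 ratio of Nanog to Gata6 (FPKM + 1), with pEPI cells in blue and pPrE cells in orange. Trp53 reaches 111 FPKM in pEPI and 53.3 in pPrE, while Bcl2l11 reaches 6.26 in pEPI and 9.78 in pPrE.

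The genes with the most similar pattern were looked up among 6083 genes with a mean of at least 5 FPKM, by Spearman correlation over 48 cells. For Bcl2l14 these were Tmem41b at 0.83 and Gm6223 at 0.81, with means of 176 and 22.5 FPKM in pEPI and 38.4 and 5 in pPrE. For Trp53 they were Hsp90aa1 at 0.76, an HSP90 chaperone gene, and Slc24a5 at 0.75, which itself had a log2 ratio of -2.04. For Myc they were Pak4 at 0.60 and Ascc2 at 0.55, and for Bcl2l11 they were Lhfpl2 at 0.55 and Tmem86a at 0.53, both higher in pPrE. The values were lower for Bax (Dppa3-ps at 0.57 and Zmat5 at 0.56), Mcl1 (Gm35857 at 0.52 and Hdgf at 0.48) and Bcl2l1 (Mat2a and Nsmce2, both at 0.50) than for Bcl2l14 and Trp53.

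Counts on 4 Y-linked genes separated 29 cells with 242 to 1298 counts from 19 with at most 1, and both sets held cells of both branches. Trp53 differed alike in these sets, with 63.2 FPKM in pEPI and 32.5 in pPrE among cells with Y-linked counts (log2 ratio -0.96, under the threshold) and 62.4 and 27.5 among those without (-1.18). Bcl2l14 had log2 ratios of -2.41 and -3.60 in the 2 sets. Myc had 40.1 FPKM in pEPI and 8.05 in pPrE with Y-linked counts and 57.7 and 28.3 without, log2 ratios of -2.32 and -1.03. Bcl2l11 had log2 ratios of 0.73 and 1.73. Mycn differed more between these sets than between the branches, with 6.24 FPKM in cells with Y-linked counts and 35.6 in cells without, and its log2 ratios between the branches were 0.94 and 0.64. The cells without Y-linked counts made up 8 of 25 pEPI and 11 of 23 pPrE cells. Pmaip1 reversed between them, with a log2 ratio of 1.19 with Y-linked counts, from 25 and 57.2 FPKM, and of -1.04 without, from 141 and 68.6. The cells without Y-linked counts lay in wells C3 to C8, D1 to D8 and F4 to F8, and those with them lay in all other wells. The 2 sets thus also differed in well position, and its part was not tested. Differences between the 2 sets were not tested, and no label ties either set to an embryo.

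MYC and MAX bind the E-box CACGTG, which reads the same on both strands, and Trp53 and Bax are known from other cells as genes with such a box near their start. RefSeq promoter windows (GRCm38.p6, 250 bases before to 50 after each start) were found for 8 of the 9 genes, in 14 windows, and Myc had no entry. The box was present in windows of 3 of these 8 genes, Trp53, Bax and Bbc3, and in 3 of the 14 windows. Among all 27025 genes with a window 8.09% had it, as did 7.15% of 32851 windows. This motif was chosen after the windows had been seen. The windows of Trp53 (chr11:69580109-69580408, plus strand) and Bax (chr7:45466849-45467148, minus strand) are printed 5′ to 3′ because these genes were counted in every cell and hold the box, which is in capitals. It begins at base 11 after the start of Trp53, and at base -9 and base 36 from the start of Bax. A match is a description of these letters and not a measured binding site.
Trp53: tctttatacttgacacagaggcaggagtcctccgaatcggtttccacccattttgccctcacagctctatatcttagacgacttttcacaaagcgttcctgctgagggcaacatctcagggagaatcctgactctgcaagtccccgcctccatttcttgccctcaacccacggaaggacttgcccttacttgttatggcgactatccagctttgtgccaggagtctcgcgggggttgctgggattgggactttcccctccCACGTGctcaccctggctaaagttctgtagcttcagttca
Bax: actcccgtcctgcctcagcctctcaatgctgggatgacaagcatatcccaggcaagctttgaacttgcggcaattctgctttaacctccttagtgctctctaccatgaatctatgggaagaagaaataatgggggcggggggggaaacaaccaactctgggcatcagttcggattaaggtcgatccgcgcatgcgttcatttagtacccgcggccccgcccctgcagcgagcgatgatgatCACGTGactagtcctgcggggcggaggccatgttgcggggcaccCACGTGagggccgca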

How the data were processed

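The deposited values were whole-number counts per gene, which the authors made from alignments to mm10 and did not normalize; the submitters' processing notes name STAR and HTSeq. All 48 columns matched a cell by its title. The strand setting of the counting was not given in the sources used here. Branches were read by eye from the study's dendrogram. FPKM used the union of exons in GENCODE M21 (GRCm38) and library sizes by the median of ratios; 85 genes with counts, holding 0.0146% of them, had no length. The log2 ratio compared mean FPKM, and its interval has the width of the exact interval of the summed counts. The intervals of log2 ratios and counts reflect the counting error of reads alone. Because PCR copies of a molecule cannot be told from separate molecules, these intervals can be too narrow even for the counting of molecules. Shares of cells have exact Clopper-Pearson 95% intervals, which describe the number of cells counted, take cells as independent draws and leave out differences between embryos. Cells are 1 sample, and no p-value was computed.

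Named genes were the 9 genes, the 2 most abundant and all called genes of each pathway list, the lineage markers, and for members counted in at least 24 cells the 2 most correlated genes. The members and lists were chosen with earlier results of these data known, and the E-box was chosen after the promoter windows had been seen. Alternatives covered library size, summary, grouping, cells left out, thinning to 1718970 counts, thresholds and detection. The steps were tested on simulated data. Tables were computed with pandas 2.3.3, scipy 1.17.1 and numpy 2.4.6 and drawn with matplotlib 3.10.9, under Python 3.11.15.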

Additional observations from a re-analysis of the deposited data

How the results depend on the processing

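The number of the 9 genes called, 3, ranged from 2 to 4 over 19 alternatives, and in 10 of them the called genes were again Trp53, Myc and Bcl2l14. Bcl2l14 was called in 19 of 19, and Trp53 and Myc in 18 each. Trp53 missed the threshold among cells with Y-linked counts, at -0.95 with library sizes from those cells, and Myc missed it as a difference of mean log2(FPKM + 1), at -0.98. Bcl2l11 was called in 6 alternatives and Bak1 in 1, without a minimum level. Grouping by PC1 of 3510 variable genes, with the members and lists left out, put 0 of 48 cells on the other side; Ward clusters moved 3 and the Nanog to Gata6 ratio 9. No called gene changed direction. Over all results there were 211 alternative values, of which 121 were labelled the same and 90 moved. A log2 ratio was labelled moved where it left its counting interval. Bcl2l1 had the other sign in 4 of 17 alternatives and Bbc3 in 7 of 16; the cause was not tested. With at least 10 counts or after thinning, 3 genes were again counted in every cell, and with at least 10 CPM there were 2. With 1 sample there is no replicate check. Bak1 and Bbc3 had 56 and 65 counts in all, and after thinning they were counted in 9 and 4 cells, against 10 and 4 before.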
